A study of Mus musculus with 4 samples.

Results

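The 10 immediate early genes described here, 3 of the Egr family, 3 of the Ier group, Btg2, Zfp36, Zfp36l1 and Myc, were followed through the cardiomyocyte RNA-seq libraries of the pressure overload study. They were taken by gene symbol, each symbol matched exactly 1 row, and all 10 of the 22322 listed genes were found in every library. The sample titles name 2 Sham and 2 TAC libraries, TAC standing for transverse aortic constriction, a surgical narrowing of the aorta that raises the pressure against which the left ventricle pumps. The study's methods describe male mice operated at 2 months of age and cardiomyocytes freed with a Langendorff system, that is by perfusing the heart through its own vessels, and each RNA sample held part of the cells of 1 heart. The hearts are dated to 14 weeks, which the methods give in one place as time since surgery and in another as age. The operation was done under ketamine and xylazine anaesthesia, and the methods name no strain, transgene or further drug for these mice.

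Immediate early genes are switched on within minutes of a stimulus without new protein synthesis, because the factors that drive them, such as serum response factor with its partners and CREB, are already bound or present in the resting cell. Most of their mRNAs are short-lived, so that their levels fall back quickly once the stimulus ends. In heart muscle they are known to respond to acute stretch, catecholamines and acute pressure load, and in many tissues to the handling and enzymatic release of the cells. The Egr proteins are zinc finger transcription factors. Ier2 is a nuclear protein, Ier3 a stress-response protein linked to cell survival, and Ier5 a regulator linked to the heat shock response. Btg2 is an antiproliferative protein that binds the CCR4-NOT deadenylase. Zfp36 (tristetraprolin) and Zfp36l1 bind AU-rich mRNAs and bring them to the same deadenylase. Myc is the growth-promoting transcription factor that pairs with Max.

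The libraries held 24237777 to 32118323 counts, and the mitochondrially encoded genes took 39.84% to 47.42% of them, with the highest share in TAC 1. Counts of the replicates differed by more than sampling noise (chi-square per degree of freedom 9.19 in sham and 31.34 in TAC), so the 4 libraries were kept as separate samples. Cardiomyocyte identity was plain in all of them, since the 15 cardiomyocyte markers summed to between 89550 and 99600 CPM (counts scaled to a common library size with TMM factors). Markers of other cell types were present at lower levels and are given beside the results below. Because the samples are bulk RNA, fewer cells of a type and less RNA per cell cannot be told apart.

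Of the 10 genes, 4 were lower in TAC and 0 were higher. Egr1, Ier2, Btg2 and Zfp36 fell to between 0.165 and 0.321 of the sham level. Ier5, Ier3, Zfp36l1, Egr3, Egr2 and Myc were not called. A gene was called where its p from edgeR's quasi-likelihood test, adjusted by Benjamini-Hochberg over the 12499 genes tested, was under 0.05. Of all these genes 2.43% were called lower and 2.58% were called higher. All 10 genes passed the filter on low counts. The log2 fold change was below 0 for 9 of the 10 genes, with a median of −0.79, while 50.9% of all tested genes were below 0 and their median was −0.01. At an unadjusted p under 0.05 there were 5 of the 10, all of them lower, against 27.5% of all tested genes in either direction. The unadjusted counts of the lists given later stand against the same 27.5%. In addition, DESeq2 and limma also called 0 of the 10 higher and 4 lower. Both TAC libraries lay below both sham libraries for 7 of the 10 genes, against 30.3% of all tested genes, and above them for 0, against 29.8%. The replicates come from separate hearts, and with 2 of them per group each p rests on a spread shared across genes.

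**Figure D1:**
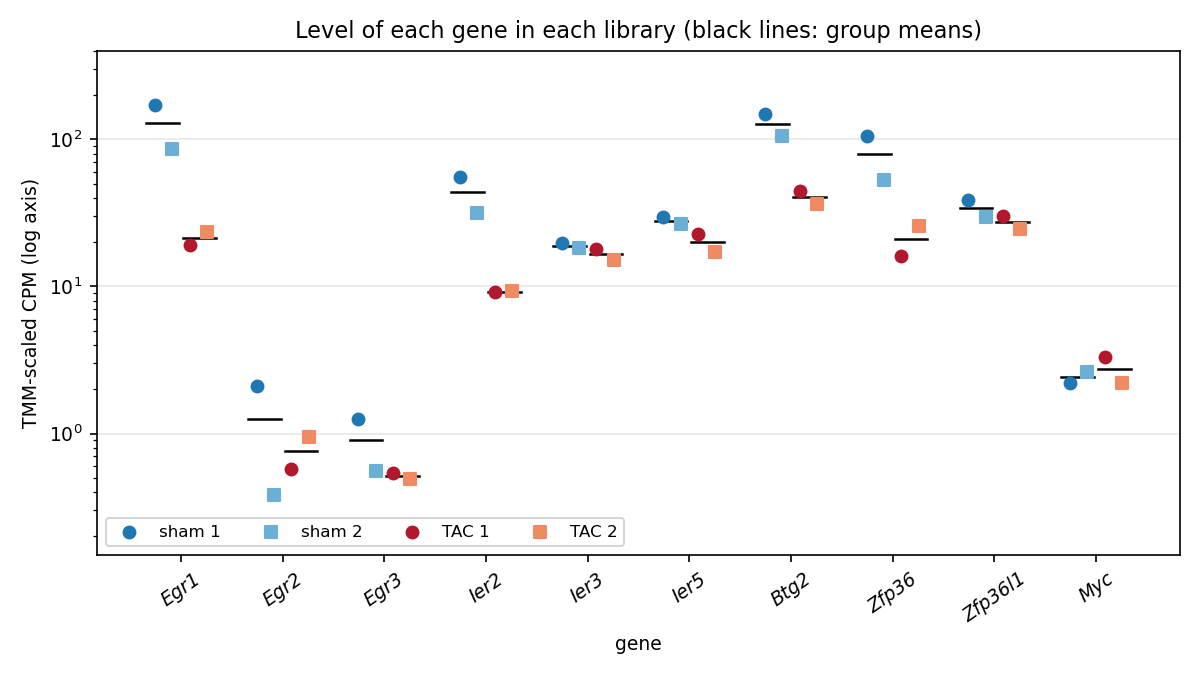
TMM-scaled CPM (log axis) of each of the 10 genes in sham 1, sham 2, TAC 1 and TAC 2, with a black line at each group mean. Egr1, Ier2, Btg2 and Zfp36 show a gap between the groups, whereas Egr2, Zfp36l1 and Myc overlap, and sham 1 is the highest library for 9 of the 10 genes.

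Egr1 had the largest fall of the 10. It lies on chromosome 18 at 34859823 to 34864984 (GRCm38, plus strand) and is listed as ENSMUSG00000038418. Its level was 172 CPM in sham 1 and 86.0 CPM in sham 2 against 19.2 CPM in TAC 1 and 23.6 CPM in TAC 2, from 5449, 2474, 535 and 576 counts. The sham libraries were far above the TAC libraries, but sham 1 was 2 times sham 2. The group means were 129 ± 61.0 CPM in sham and 21.4 ± 3.09 CPM in TAC (SD, n = 2 each), and the log2 fold change was −2.60 ± 0.30 (SE; edgeR adjusted p = 0.00747). The level in TAC was thus 83.5% lower, and 0.064% of all tested genes had a more negative log2 fold change. The log2 difference of a TAC from a sham library ran from −3.17 to −1.87 over the 4 pairs, and was smallest in size for TAC 2 against sham 2. The size depended on the sham library used, with a log2 fold change of −2.01 without sham 1 and −3.01 without sham 2. In such fits the remaining sham library is assumed to vary like the TAC libraries, which alone give the spread, so a call in them is weak support.

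Egr2 (ENSMUSG00000037868, chromosome 10, 67535475 to 67542188) and Egr3 (ENSMUSG00000033730, chromosome 14, 70077203 to 70082614), close relatives of Egr1 that recognise a similar GC-rich site, were barely expressed. Egr2 had 67 and 11 counts in the sham libraries 1 and 2 and 16 and 23 in the TAC libraries. Exact Poisson limits at 95%, for counting error alone, were 51.9 to 85.1, 5.49 to 19.7, 9.15 to 26.0 and 14.6 to 34.5. Sham 1 stood apart and the other sham library was the lowest of all 4, so that the groups overlapped. The log2 fold change of −0.75 ± 0.72 (SE; edgeR adjusted p = 0.53) turned to 0.97 without sham 1, and its 95% interval ran from −2.43 to 0.94. Egr3 had 40, 16, 15 and 12 counts in the same order, with intervals of 28.6 to 54.5, 9.15 to 26.0, 8.40 to 24.7 and 6.20 to 21.0. The intervals of sham 2 and the TAC libraries overlapped, and the log2 fold change of −0.83 ± 0.51 (SE; edgeR adjusted p = 0.331) became −0.11 without sham 1. The interval for Egr3 ran from −2.02 to 0.37. The estimate for Egr1 lies outside both intervals, but the difference between the genes was not tested.

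Of the 3 Ier genes, Ier2 fell, while Ier3 and Ier5 were not called. Ier2 and Ier5 encode related proteins and Ier3 an unrelated one. Ier2 (ENSMUSG00000053560, chromosome 8, 84661331 to 84662852) measured 55.8 CPM in sham 1 and 31.8 CPM in sham 2, with 9.18 CPM in TAC 1 and 9.28 CPM in TAC 2. The TAC libraries were almost equal and both sham libraries stood over them, sham 1 again higher at 1.76 times sham 2. The means were 43.8 ± 17 and 9.23 ± 0.072 CPM (SD, n = 2 each). TAC was 78.9% lower, which is −2.25 ± 0.25 on the log2 scale (SE; edgeR adjusted p = 0.00641). Without sham 1 the log2 fold change was −1.78 and without sham 2 it was −2.59.

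Ier5 (ENSMUSG00000056708, chromosome 1, 155096361 to 155099636) was at 29.5 and 26.6 CPM in sham 1 and sham 2 and at 22.8 and 17.1 CPM in TAC 1 and TAC 2. The groups did not overlap, but the spread inside TAC was larger than the gap between TAC 1 and sham 2. Its log2 fold change of −0.49 ± 0.14 (SE; edgeR adjusted p = 0.0898) missed the threshold, with a 95% interval from −0.83 to −0.15 before adjustment. It was called with total-count scaling (−0.69, edgeR adjusted p = 0.0349), without a filter on low counts (−0.48, edgeR adjusted p = 0.0195) and without TAC 1 (−0.72, edgeR adjusted p = 0.0329). Ier3 (ENSMUSG00000003541, chromosome 17, 35821684 to 35822923) was at 19.6, 18.2, 18.1 and 15.2 CPM in sham 1, sham 2, TAC 1 and TAC 2. TAC 1 was level with sham 2 and only TAC 2 lay a little lower. The log2 fold change was −0.18 ± 0.12 (SE; edgeR adjusted p = 0.357), and the 95% interval from −0.46 to 0.10 did not reach the size estimated for Ier2 (the difference between them was not tested).

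Btg2, the deadenylase-binding antiproliferative gene, had the highest group mean of FPKM of the 10 (in TAC level with Ier3, and in sham overlapping Egr1) and fell to about the same extent in both TAC libraries. It is listed as ENSMUSG00000020423 on chromosome 1 at 134075170 to 134079120. Its level was 149 CPM in sham 1 and 105 CPM in sham 2 against 44.8 CPM in TAC 1 and 36.6 CPM in TAC 2. The sham libraries differed by 1.42 times, less than for Egr1. The log2 fold change was −1.64 ± 0.17 (SE; edgeR adjusted p = 0.00519), from 127 ± 30.9 to 40.7 ± 5.80 CPM (SD, n = 2 each), and it stayed between −1.86 and −1.37 when any 1 library was left out.

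Zfp36 (ENSMUSG00000044786, chromosome 7, 28376784 to 28380253) measured 106 CPM in sham 1 and 52.8 CPM in sham 2 against 16.1 CPM in TAC 1 and 25.7 CPM in TAC 2. Both groups spread, sham 1 at 2.01 times sham 2 and TAC 2 at 1.59 times TAC 1, but they did not overlap. The log2 fold change was −1.93 ± 0.33 (SE; edgeR adjusted p = 0.026), with means of 79.5 ± 37.7 and 20.9 ± 6.75 CPM (SD, n = 2 each). It was the call nearest to the threshold, with a log2 fold change of −1.63 once TAC 1 was left out (edgeR adjusted p = 0.048), against −2.30 when TAC 2, −2.34 when sham 2 and −1.34 when sham 1 was left out, and over all alternatives the adjusted p ran from 5.76e-06 to 0.048. Its relative Zfp36l1 (ENSMUSG00000021127, chromosome 12, 80107754 to 80113013) was at 38.7, 29.7, 29.9 and 24.6 CPM in sham 1, sham 2, TAC 1 and TAC 2. TAC 1 was level with sham 2, so the groups overlapped, and the log2 fold change was −0.33 ± 0.15 (SE; edgeR adjusted p = 0.199; 95% interval −0.67 to 0.02). In the GENCODE annotation an antisense gene overlaps Zfp36 by 1274 bases and a long non-coding RNA gene on the opposite strand overlaps Zfp36l1 by 4967 bases. Neither is listed in the tables, and without a stated use of strand their reads could not be told from those of Zfp36 and Zfp36l1.

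Myc (ENSMUSG00000022346, chromosome 15, 61985391 to 61990374) was the only 1 of the 10 whose log2 fold change was above 0. Its counts were 70 and 75 in the sham libraries and 92 and 54 in the TAC libraries, that is 2.21, 2.61, 3.30 and 2.21 CPM. The lowest sham and the lowest TAC library were equal and the groups overlapped. The log2 fold change was 0.20 ± 0.28 (SE; edgeR adjusted p = 0.674; 95% interval −0.45 to 0.85), and its sign turned with total-count scaling (−0.01) and without TAC 1 (−0.12).

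**Figure D2:**
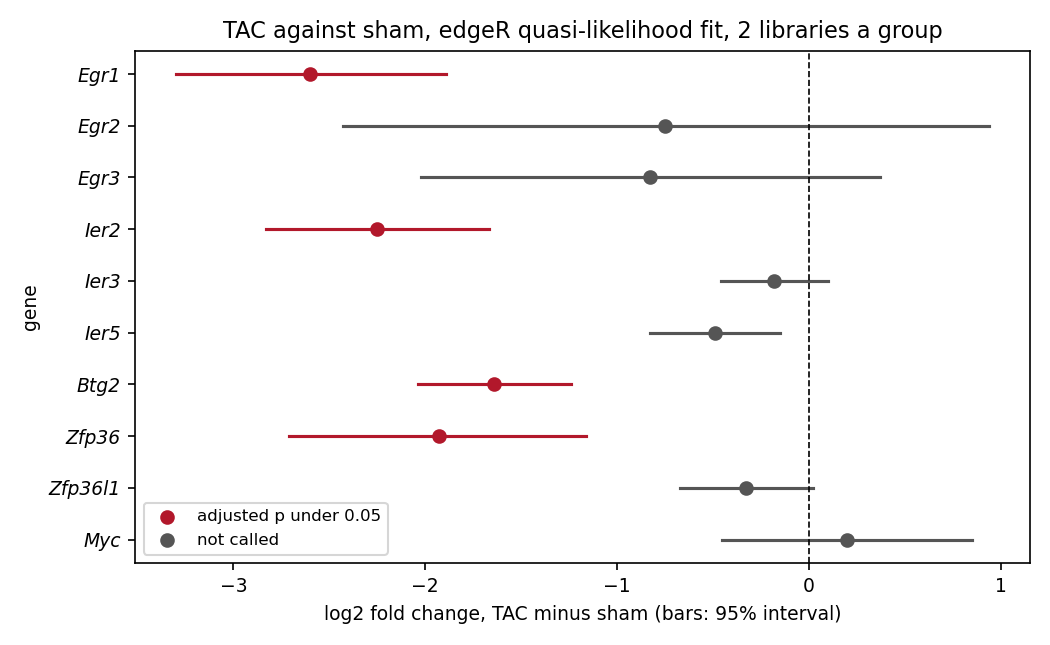
Log2 fold change, TAC minus sham, of the 10 genes from the edgeR fit with 95% intervals (n = 2 per group). The intervals of the 4 called genes (red) end below −1, those of Egr2, Egr3, Ier3, Zfp36l1 and Myc reach past 0, and that of Ier5 ends at −0.15 without a call after adjustment.

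The mouse promoters of 6 of the 10 genes were taken from the RefSeq table used here (GRCm38.p6). Their 250 bases before the start site were searched on both strands for a CArG box (the site of serum response factor), a CRE (TGACGTCA, the site of CREB), an Egr site (GCGTGGGCG), an E-box (CACGTG, the site of Myc with Max) and a TATA box (TATAAA). Egr1, Egr3, Ier2 and Myc were not searched. The sequences are shown because the CArG box, found in Zfp36 and Egr2, and the CRE, found in Btg2, are motifs of factors known to drive immediate early genes, and Zfp36l1 and Ier5 are given as windows with neither. With only 2 of the 4 called genes searched, the motifs are not compared between called and uncalled genes. A CArG box was found in 1.47% of the 32851 windows of the table and a CRE in 1.55%. The CArG box of Zfp36 begins 58 bases before its RefSeq start, within the bounds of the GENCODE gene. Egr2, which was not called, had a CArG box in 4 of its 5 windows, and 2 different sites are given. Capitals mark the CArG box, the CRE or, in Zfp36l1, the TATA box, and each sequence is written 5′ to 3′ along the gene's strand.
Zfp36, CArG box, chr7:28379267-28379296, minus strand: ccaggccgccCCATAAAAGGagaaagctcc
Egr2, CArG box before 3 of the starts, chr10:67537787-67537816, plus strand: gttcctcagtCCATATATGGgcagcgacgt
Egr2, CArG box before a further start, chr10:67537484-67537513, plus strand: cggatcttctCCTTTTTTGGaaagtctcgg
Btg2, 250 bases before the start with the CRE, chr1:134079156-134079405, minus strand: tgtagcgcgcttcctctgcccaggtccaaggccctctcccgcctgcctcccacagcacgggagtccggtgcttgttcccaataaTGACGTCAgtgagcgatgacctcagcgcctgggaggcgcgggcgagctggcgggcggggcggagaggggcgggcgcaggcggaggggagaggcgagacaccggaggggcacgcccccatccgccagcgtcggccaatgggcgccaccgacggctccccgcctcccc
Zfp36l1, 250 bases before the start with the TATA box, chr12:80113014-80113263, minus strand: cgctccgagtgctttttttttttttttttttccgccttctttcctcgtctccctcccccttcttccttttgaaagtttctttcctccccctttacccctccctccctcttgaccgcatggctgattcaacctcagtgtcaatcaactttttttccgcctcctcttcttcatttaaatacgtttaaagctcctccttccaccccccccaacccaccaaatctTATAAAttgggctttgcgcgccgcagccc
Ier5, 250 bases before the start with none of the 5 motifs, chr1:155099637-155099886, minus strand: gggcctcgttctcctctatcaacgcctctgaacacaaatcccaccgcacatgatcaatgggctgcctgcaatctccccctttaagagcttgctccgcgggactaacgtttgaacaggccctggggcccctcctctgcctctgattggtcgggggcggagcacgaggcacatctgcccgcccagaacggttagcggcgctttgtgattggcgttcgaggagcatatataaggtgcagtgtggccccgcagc

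The CRE of Btg2 begins 166 bases before the start, in a window of 73.2% G and C, against a median of 52.4% over all windows. Zfp36l1, with 48.4% G and C, had a TATA box 29 bases before the start, as had 12.4% of all windows in some position. By the letters searched, the windows of Ier3 and Ier5 held none of the 5 motifs. Only the exact letters TATAAA were taken as a TATA box. Near matches, such as tatataag close to the start in the Ier5 window, were not counted. An E-box was found only before 1 start of Egr2 (6.02% of all windows). No Egr site was found in any window of the 6 genes (0.536% of all windows). These matches describe the letters of the windows and not binding.

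Levels can be compared between genes only per transcript length, for which the deposited FPKM (fragments scaled by transcript length and library size) was used. In sham the order of mean FPKM was Btg2 (49.6 ± 13.9), Egr1 (42.2 ± 21.1), Zfp36 (32.4 ± 16.5), Ier2 (30.9 ± 13.1), Ier3 (17.9 ± 1.56), Zfp36l1 (12.3 ± 2.73), Ier5 (9.14 ± 1.01), Myc (1.21 ± 0.00707), Egr2 (0.595 ± 0.262) and Egr3 (0.25 ± 0.141), each ± SD with n = 2. The first 4 overlapped within their spread. In TAC the called genes Egr1, Zfp36 and Ier2 stood lower in the order, while Btg2 kept its first place. Btg2 (13.8 ± 0.509) and Ier3 (13.7 ± 0.262) were level at the top, followed by Zfp36l1 (8.48 ± 0.269), Zfp36 (7.50 ± 3.14), Egr1 (6.13 ± 1.44), Ier2 (5.69 ± 0.651) and Ier5 (5.65 ± 0.566), while Myc (1.29 ± 0.24), Egr2 (0.29 ± 0.0424) and Egr3 (0.14 ± 0.0141) stayed last. Zfp36, Egr1, Ier2 and Ier5 did not differ beyond their spread there. The length implied by count and FPKM was the same within 1.02 times between libraries for 7 of the genes, but differed by 1.13 times for Myc, 1.27 times for Egr3 and 3.07 times for Egr2, so the FPKM of Egr2 is not a steady measure of its counts.

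Because the sham libraries disagreed for the called genes, that difference was set beside the change in TAC. Sham 1 was above sham 2 by 1.00 (log2) for Egr1, 1.01 for Zfp36, 0.81 for Ier2 and 0.50 for Btg2. Ier3 (0.10), Ier5 (0.15) and Zfp36l1 (0.38) differed less, Egr3 (1.18) and Egr2 (2.47) differed more at their low counts, and Myc went the other way (−0.24). The middle 95% of all tested genes ran from −0.57 to 0.92 with a median of 0, and the median of the 10 genes was 0.66. Between the TAC libraries the median of the 10 genes was 0.19 (TAC 1 minus TAC 2), within a range of −1.11 to 0.59 for the middle 95% of all genes. The 10 genes were thus more alike between the TAC libraries than between the sham libraries, except Ier3, Ier5 and Myc.

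**Figure D3:**
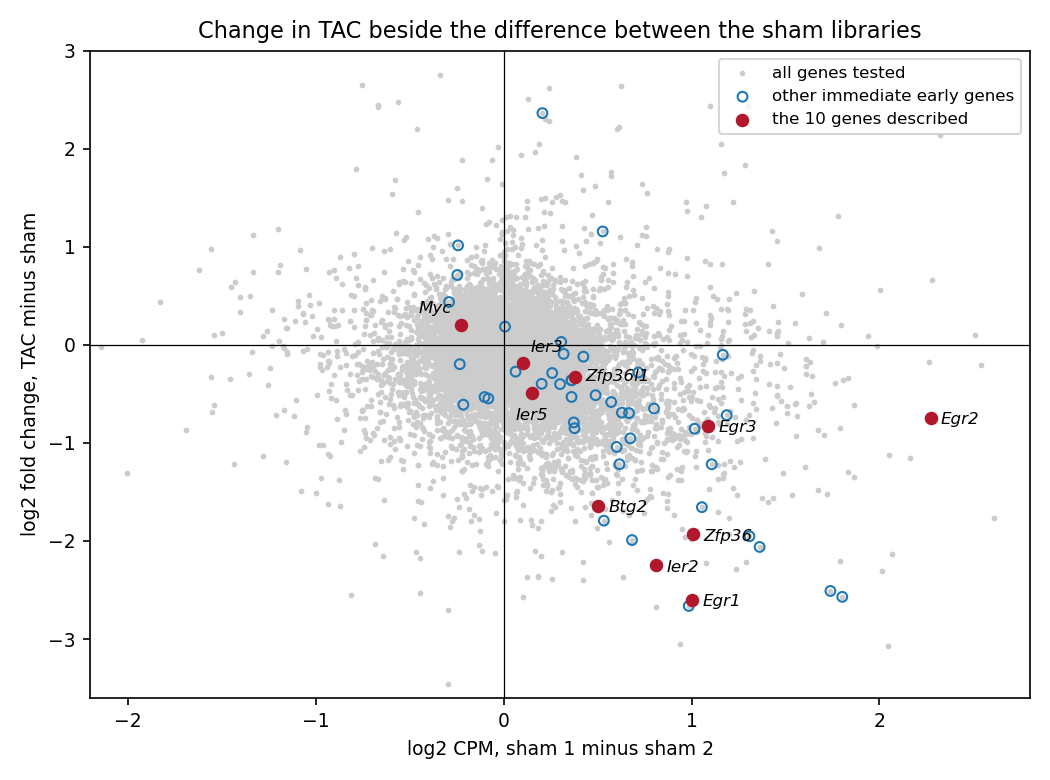
Log2 fold change, TAC minus sham, against the log2 CPM difference between sham 1 and sham 2 (a prior count of 2 added, which draws in the low genes Egr2 and Egr3), for all genes tested (grey, 33 outside the axes), the other immediate early genes (blue circles) and the 10 genes described (red). The called genes Egr1, Ier2, Btg2 and Zfp36 lie low and to the right, at 0.50 to 1.01 on the horizontal axis.

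The summed endothelial and fibroblast markers were lower in both TAC libraries than in both sham libraries. The macrophage and leukocyte sum was level in sham 2 and TAC 2, and the cardiomyocyte, mural and red blood cell sums did not follow this order. Of 15 macrophage and leukocyte markers, all 14 that could be tested had a log2 fold change below 0, and none was called (edgeR, 8 at an unadjusted p under 0.05). Their summed level was 79.7 to 156 CPM in sham and 42.2 to 79.6 CPM in TAC, highest in sham 1 and lowest in TAC 1. Of 15 endothelial markers 5 were called lower (edgeR, 12 at an unadjusted p under 0.05) and 12 had both TAC libraries below both sham libraries. The endothelial sum was 736 to 877 CPM in sham and 427 to 582 CPM in TAC. Of 15 fibroblast markers 4 were called lower (edgeR, 10 at an unadjusted p under 0.05) and 12 had both TAC libraries below both sham libraries. The fibroblast sum was 394 to 570 CPM in sham and 229 to 313 CPM in TAC. Over all tested genes 2.43% were called lower and 30.3% had both TAC libraries below both sham libraries. No marker of these 3 lists was at 0 in any library. Of 12 mural markers 2 were called lower (edgeR, 11 at an unadjusted p under 0.05). Among the 12, 11 had a log2 fold change below 0 (median −0.77) and 10 had both TAC libraries below both sham libraries. Their sum, most of it from Des, which heart muscle also expresses (1490 and 1590 CPM in sham, 1980 and 2010 CPM in TAC), was 2282 to 2414 CPM in sham and 2438 to 2604 CPM in TAC. Red blood cell genes summed to 73.8 to 84.9 CPM in sham and 49.9 to 125 CPM in TAC, with Slc4a1 at 0 in 3 of the libraries, and 0 of 5 tested were called (edgeR, 0 at an unadjusted p under 0.05). The 15 cardiomyocyte markers were called 0 times (edgeR, 7 at an unadjusted p under 0.05), with a median log2 fold change of 0.11. Relative to its own mean over the libraries, Egr1 (log2 1.19, 0.19, −1.97 and −1.68 in sham 1, sham 2, TAC 1 and TAC 2) can be set beside the sums of the marker lists. The endothelial sum was at 0.42, 0.17, −0.62 and −0.17 and the fibroblast sum at 0.60, 0.07, −0.72 and −0.27, both with TAC below sham and with sham 1 highest and TAC 1 lowest, as for Egr1. Zfp36 had the same order (1.08, 0.07, −1.64 and −0.97). Ier2 was level in TAC 1 and TAC 2 (−1.53 and −1.51), and Btg2 was lowest in TAC 2 (−0.90 in TAC 1 and −1.20 in TAC 2). The macrophage and leukocyte sum was at 0.80, −0.17, −1.08 and −0.17, with sham 2 and TAC 2 equal. The part of other cells in the fall of the 4 genes was not tested.

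**Figure D4:**
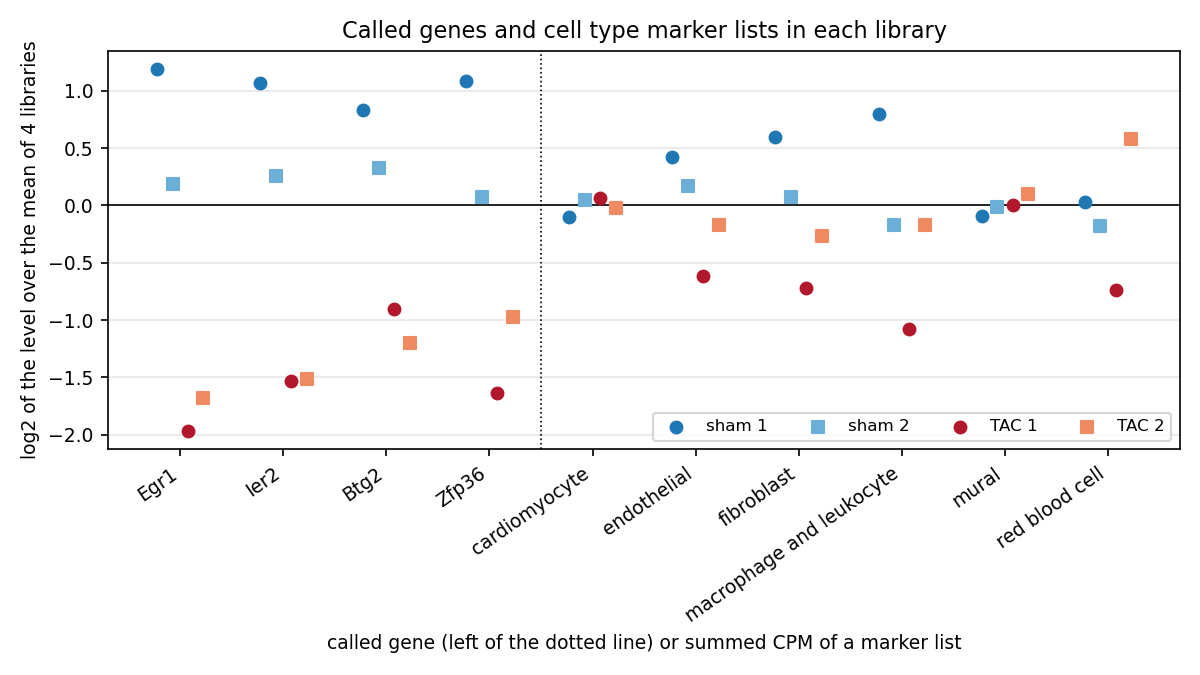
Log2 of the level over the mean of the 4 libraries, for the called genes Egr1, Ier2, Btg2 and Zfp36 (left of the dotted line, CPM) and for the summed CPM of each marker list (right). The called genes and the endothelial and fibroblast sums all separate TAC from sham, the macrophage and leukocyte sum is −0.17 in both sham 2 and TAC 2, and the cardiomyocyte sum stays within −0.10 to 0.06.

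The other genes of the response were then examined from a list of 46. Of the 43 that could be tested, 10 were called lower and 2 higher, against 2.43% and 2.58% of all tested genes. At an unadjusted p under 0.05 (edgeR) there were 30. The median log2 fold change was −0.55, and 36 were below 0, against 50.9% of all tested genes. The largest falls were those of the AP-1 subunit Fos (127, 64.3, 14.1 and 16.2 CPM in sham 1, sham 2, TAC 1 and TAC 2; log2 fold change −2.66 ± 0.30 SE, edgeR adjusted p = 0.00641), the NF-kappaB modulator Nfkbiz (−2.57 ± 0.56, edgeR adjusted p = 0.0467) and the AP-1 subunit Fosb (−2.51 ± 0.55, edgeR adjusted p = 0.0467). For Nfkbiz and Fosb sham 1 stood far above sham 2, so the size of their falls depended on the sham library. Nfkbiz was at 18.2, 5.18, 1.76 and 2.21 CPM and Fosb at 12.9, 3.82, 1.43 and 1.51 CPM in the same order. Junb (−1.99) and Jun (−1.79), further AP-1 subunits, also fell. Against the direction of these, the nuclear receptor gene Nr4a3 rose by 2.36 ± 0.17 on the log2 scale (edgeR adjusted p = 0.00342), from 2.50 and 2.15 CPM in sham to 12.8 and 11.2 CPM in TAC, and the matricellular gene Ccn2, chosen after its values were seen because it was the only other higher call, rose by 1.02 ± 0.14 (edgeR adjusted p = 0.0127). The count of lower calls changed with the library left out, in fits where the libraries of the other group alone give the spread. Leaving out TAC 1 gave 5 and leaving out TAC 2 gave 13, while leaving out sham 1 gave 9 and leaving out sham 2 gave 21.

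Upstream of these genes, serum response factor and its signalling partners gave 1 higher and 1 lower call among 18. Srf itself, the factor that binds the CArG box, rose by 0.45 ± 0.08 on the log2 scale (edgeR adjusted p = 0.0278), from 52.8 and 54.3 CPM in sham to 76.5 and 70.0 CPM in TAC, while the kinase gene Rps6ka5 fell by 0.77 (edgeR adjusted p = 0.0407). Neither call was made without TAC 1, that of Srf was lost with total-count scaling, and that of Rps6ka5 was lost with the replicate number as a block.

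Among relatives and partners of the 10 genes few calls were made. Of 6 tested partners of the Egr proteins, edgeR called 0 (2 at an unadjusted p under 0.05, 0 by DESeq2). Nab2, a corepressor of Egr proteins and itself a known Egr target, was at 3.19, 3.20, 1.54 and 2.94 CPM in sham 1, sham 2, TAC 1 and TAC 2 (edgeR adjusted p = 0.33). Of 6 relatives of the Ier and Btg proteins, Ier3ip1, which shares a name with Ier3 as its interacting protein, rose by 0.59 ± 0.12 on the log2 scale (edgeR adjusted p = 0.0423), and was not called with total-count scaling, with totals free of mitochondrial genes, without sham 1 or without TAC 2. In that list 4 of the 6 were at an unadjusted p under 0.05 and 0 were called lower by edgeR, against 1 by DESeq2, 1 with either of these other scalings, 1 without sham 1, sham 2 or TAC 2 in turn and 2 with no filter on low counts. Zfp36l2, the remaining expressed relative of Zfp36, was at 19.4, 12, 7.64 and 11.5 CPM in the same order (log2 fold change −0.72 ± 0.26 SE, edgeR adjusted p = 0.132). None of 6 tested genes of that list was called by edgeR (2 at an unadjusted p under 0.05, 0 by DESeq2). With no filter on low counts edgeR called 1 lower and 1 higher. The 10 tested genes of the Myc network gave 0 calls by edgeR and by DESeq2 (0 at an unadjusted p under 0.05), and the 15 genes of the CCR4-NOT deadenylase and decay machinery, which Btg2 and Zfp36 recruit, also gave 0 by both (1 at an unadjusted p under 0.05), with a median log2 fold change of −0.07.

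Known targets were listed for the proteins whose mRNA is described here. Of 11 Zfp36 targets, 7 could be tested, and the chemokine gene Cxcl1 was called lower (175 and 82 counts in the sham and 8 and 18 in the TAC libraries; log2 fold change −3.06 ± 0.49 SE, edgeR adjusted p = 0.0215) and the angiogenic factor gene Vegfa higher (0.68 ± 0.14, edgeR adjusted p = 0.04). The median of the 7 was −2.14, on few counts and with a median difference of 1.31 between sham 1 and sham 2, and without sham 2, where sham 1 alone stands for its group and the spread comes from the TAC libraries, 7 of the list were called lower. The call of Vegfa was lost with total-count scaling, with totals that left out the mitochondrial genes and without TAC 1. All 11 tested Egr targets were below 0 with a median of −0.44 and 0 were called by edgeR (5 at an unadjusted p under 0.05, 1 by DESeq2). With totals that left out the mitochondrial genes edgeR called 1 of them lower, and with no filter on low counts 3. Of 18 Myc targets 15 were above 0, with a median of 0.24, and the polyamine synthesis gene Odc1 (0.43 ± 0.08, edgeR adjusted p = 0.0273) and the translation factor gene Eif4a1 (0.44 ± 0.09, edgeR adjusted p = 0.0364) were called higher. Both calls were lost with total-count scaling, where all genes shift by about −0.2, and neither was made without sham 1 or without TAC 1.

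Genes with the most similar course over the 4 libraries were found by the Euclidean distance between centred log2 CPM profiles, among the 8485 genes, the 10 left out, that averaged 5 CPM or more. For Egr1 they were Fos (distance 0.0948), Junb (0.608), Nfkbiz (0.619), Jun (0.895) and Apold1 (0.949). Among the 10 genes themselves, Ier2 (0.409) and Zfp36 (0.690) were nearest to Egr1, both nearer than Jun, and Btg2 followed at 1.04. For Ier3, whose profile is almost flat, the nearest were Rrs1 (0.023), Dph1 (0.0265), Zcchc14 (0.0452), Mta2 (0.0478) and Phf2 (0.0503), and for Myc they were Spata2 (0.0621), Cpeb4 (0.0743), Mapk10 (0.085), Pibf1 (0.106) and mt-Nd5 (0.107). The likeness rests on 4 libraries and is a description.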

How the data were processed

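Total RNA from cardiomyocytes of 2 sham and 2 TAC hearts was extracted with TRIzol and sequenced by Illumina protocols. The authors deposited, library by library, expected counts per Ensembl gene (1432 to 1519 genes with a value that is not whole) and FPKM. Per the labels the processing notes name Bowtie2 2.2.8, StringTie 1.3.1 and the mm10 build. The counting program, its use of strand and its division of shared fragments are not stated. Titles gave group and replicate.

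Counts were rounded, filtered with filterByExpr, scaled by TMM (factors 0.8683 to 1.097) and fitted with the quasi-likelihood test of edgeR 4.0.16 in R 4.3.3. It was tried on simulated data in which all genes had the same spread. That trial does not cover genes that vary more between libraries. P-values were adjusted over 12499 genes. The fit had no block. The methods speak of pairs of sham and TAC mice without saying what a pair shared or which libraries form one, and same-numbered libraries did not deviate together (r = −0.242 over genes). The SE was the log2 fold change divided by the root of F, and 95% intervals used the total degrees of freedom of the fit. Alternatives were DESeq2 1.42.0, limma 3.58.1 (voom), other scalings, no filter, the block and each library left out. An exact permutation test of 2 against 2 cannot go below p = 0.333. The study names total-count scaling, which was run as an alternative.

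The 10 genes, the gene lists and the tests were chosen with earlier results of these data known. From each list the called genes with the largest changes were named, at most 6, together with genes needed beside a member and, outside this rule, Ccn2. The alike genes were the 5 nearest, members left out, to Egr1, Ier3 and Myc.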

Additional observations from a re-analysis of the deposited data

How the results depend on the processing

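The number of the 10 genes called lower in TAC was 4 to 5 under every scaling, tool, filter and left-out library run, with 3 at an adjusted p under 0.01 and 5 at one under 0.1, and 0 were called higher in any. The fifth gene was Ier5. Total-count scaling moved the median of all tested genes to −0.20, and leaving the mitochondrial genes out of the totals moved it to −0.11. Over the related lists, 12 genes were called lower and 7 higher. With no filter on low counts these were 35 and 11, and with total-count scaling 2 were higher. Leaving out 1 library at a time gave 6 to 31 lower and 3 to 8 higher. Without TAC 1 there were 6 lower and 3 higher, without sham 2 there were 31 lower and without TAC 2 there were 20 lower. The cause was not tested. With the replicate number as a block, edgeR called 4 of the 10 genes, the same number as without it, and 566 genes in all against 626. The deviations of same-numbered libraries correlated at −0.242 over genes, and a crossed pairing, chosen after seeing the data, called 5 of the 10 and 2131 in all. Without a block, same-numbered libraries were treated as unpaired. Counts of Egr2, Egr3 and Myc, at 11 to 92 per library, limit what can be seen for them. Egr1, Ier2, Btg2 and Zfp36 kept their direction in every alternative run but the crossed pairing, for which only counts are given. Their calls at 0.05 also stayed in those of these with a test, but where 1 library was left out the lone library of its group was assumed to vary like those of the other group, which alone gave the spread, so calls in these fits say little about stability. At 0.01 Zfp36 was not called.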
